A study of Mus musculus with 24 samples.

Results

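Axon guidance molecules are ligands and receptors by which cells attract, repel or sort one another. The set described here holds 60 mouse genes chosen by name: 20 semaphorins, 8 plexins, 2 neuropilins, 7 ephrins, 11 Eph receptors, 3 Slits, 3 Robos, 2 netrins and 4 netrin receptors. All 60 were present among the 32040 genes of the deposited tables. Of these, 59 were among the 16190 genes with enough counts to be tested, and Sema6b, listed at 0 to 0.3 TPM in every library, was the member left out.

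Semaphorins signal mainly through plexins, which act on small GTPases and the cytoskeleton, and the secreted class 3 semaphorins use neuropilins as co-receptors. Ephrins are held at the cell surface, the A class by a lipid anchor and the B class by a transmembrane domain, and bind Eph receptor tyrosine kinases on touching cells, so that signals can pass into either cell. Slits are secreted ligands of Robo receptors, and netrins bind Dcc, neogenin and Unc5 receptors. First studied in growing axons, these families also act in cell sorting at tissue borders, in epithelial shape and in vessel patterning. In the fetal gonad, Sertoli cells gather into testis cords, whereas pre-granulosa cells remain in looser ovarian cords around germ cells.

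The libraries came from supporting cells of mouse fetal gonads sorted at E11.5, then E12.5, E13.5 and finally E15.5, with 3 libraries in each of 8 groups. XX cells were sorted as pre-granulosa cells from the Tg(Enh8-mCherry) reporter line, and XY cells as Sertoli cells from the SOX9-IRES-GFP line, so that sex, mouse line and fluorophore changed together and cannot be told apart. The labels do not say how many embryos went into a library or whether libraries of a group came from separate litters, so the p-values measure the spread between these libraries only. A lower value in such bulk samples can mean fewer cells of a type or less RNA per cell, and these cannot be told apart. The element that drives mCherry is known here only by its name.

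Levels are given in TPM, a length-scaled share of all transcripts that can be compared between genes. Differences are XX minus XY on the log2 scale, from edgeR's quasi-likelihood test on library-scaled counts, and a gene is called when its Benjamini-Hochberg adjusted p is below 0.05. Total counts ran from 11275277 to 37256871 per library. The summed Sertoli markers were at 1520 to 9539 TPM in XY and 234 to 872 TPM in XX libraries, and the pre-granulosa markers at 383 to 1364 TPM in XX and 6.69 to 105 TPM in XY libraries. The 3 XX libraries at E11.5 stood apart from each other: their 10 erythroid markers summed to 10950 to 87550 TPM against 44.6 to 107 TPM in XY, their 12 immune markers to 234 to 661 against 0.720 to 3.90 TPM, and their 10 interstitial markers to 189 to 1018 against 423 to 701 TPM. In each of these lists replicate 2 was lowest and replicate 3 highest. The 8 mesonephric and surface epithelium markers summed to 77.4 to 327 TPM in XX and 13.6 to 83.7 TPM in XY libraries, and the 10 germ cell markers to 134 to 200.2 and 52.3 to 94.3 TPM at E15.5. Their part in the sex differences was not tested. The XX library replicate 1 at E13.5 carries E12.5 in its stage field and E13.5 in its title, and was kept at E13.5.

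Of the 60 members, 35 had a mean of at least 1 TPM in all 8 groups, and 4 (Sema6b, Slit1, Ntn1 and Dcc) stayed under 1 TPM in all 8. The 2 deposited scales can differ in size: of 161 called sex differences of members with TPM above 0 in both groups, 9 differed by more than 1.5 times between counts and the ratio of mean TPM, and 1 of these, Plxna3 at E15.5, had the other direction. The highest members differed between the cell types: Efna1 led in XX cells from E12.5 on, at 165 ± 8.32 TPM at E12.5 (SD, n = 3), and Plxnb2 led in XY cells over the same stages, at 157 ± 9.15 TPM at E13.5. At E11.5 Efnb1 led in both, at 143 ± 25.0 TPM in XX and 139 ± 46.4 TPM in XY cells.

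At E11.5, 17 of 59 tested members were called higher in XX, where 21.4% of all genes tested were, and 15 were called higher in XY, where 20.6% were. At E12.5 the counts were 24 and 19, against 30.5% and 31.5% of all genes. For E13.5, 17 favoured XX and 28 favoured XY, with 32.8% and 33.3% of all genes. At E15.5 the counts were 17 and 25, with 34.9% and 34.4% of all genes. The shares of members higher in XX were thus 28.8% (E11.5), 40.7% (E12.5), 28.8% (E13.5) and 28.8% (E15.5). They lay above the shares of all genes at E11.5 and E12.5 and below them later. The shares higher in XY were 25.4%, 32.2%, 47.5% and 42.4% in turn. They lay above those of all genes at E13.5 and E15.5, and the E12.5 share was close to that of all genes. The E11.5 share lay above that of all genes, but its 15 calls became 12 with DESeq2 size factors in edgeR. The share of all genes in that fit was not computed. Over the members the median difference was 0.23 (E11.5), -0.05 (E12.5), -0.51 (E13.5) and -0.22 (E15.5), while the median over all genes lay between -0.01 and 0.05. The E11.5 count rested on the spread pooled over all 24 libraries: with the 6 E11.5 libraries alone 15 members were called, 10 of them higher in XX. On log2(TPM + 0.1) with limma, the E11.5 split was 11 higher in XX and 15 in XY.

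**Figure D1:**
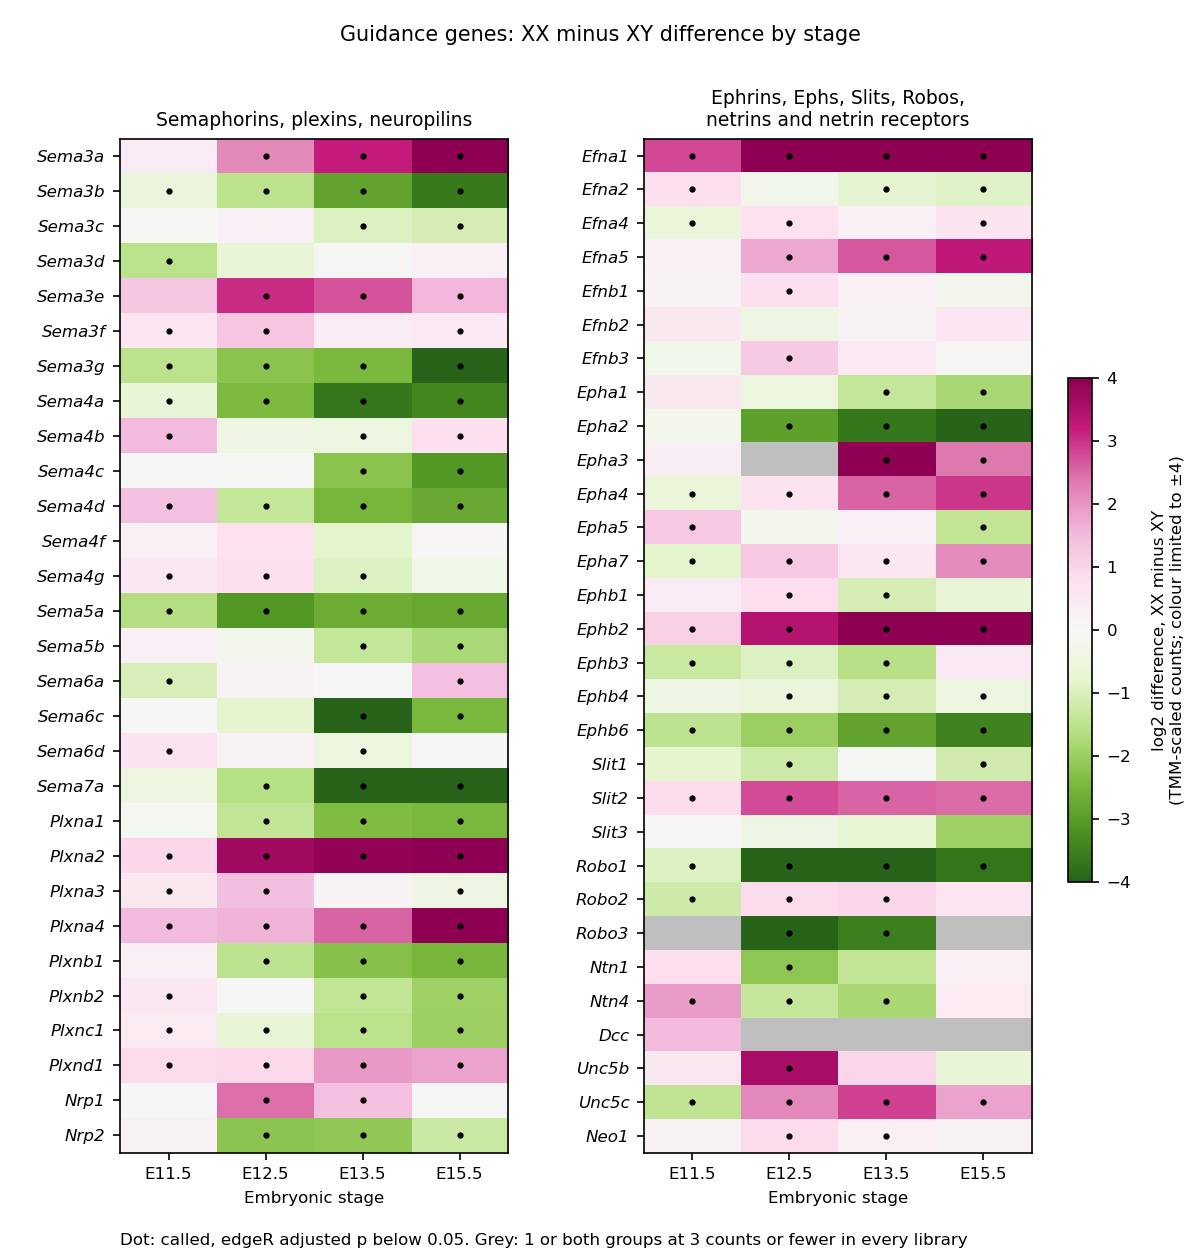
Heat map of the XX minus XY difference (log2, TMM-scaled counts) of the 59 tested members in rows, at the 4 stages in columns; magenta is higher in XX, green higher in XY, dots mark calls, and grey marks cells where a group had 3 counts or fewer in every library. The XX-high rows Efna1, Ephb2, Plxna2 and Plxna4 and the XY-high rows Robo1, Sema5a and Ephb6 keep 1 colour over the 4 stages, while Sema4d, Plxnc1 and Epha7 change colour after E11.5.

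Of the 59, 6 were called higher in XX at all 4 stages: Plxna2, Plxna4, Plxnd1, Efna1, Ephb2 and Slit2 (8.49% of all genes tested had that pattern). A further 7 were called higher in XY at all 4 stages: Sema3b, Sema3g, Sema4a, Sema5a, Ephb6, Robo1 and Robo3 (the last with XX cells at 3 counts or fewer at E11.5 and E15.5), against 9.39% of all genes. These shares of the members, 10.2% and 11.9%, were close to those of all genes. With only the compared libraries the counts were 4 and 3, and the 7 became 3 when XY replicate 1 of E11.5 was left out and 4 when XX replicate 3 or XY replicate 2 of that stage was. The E11.5 calls of Plxnd1, Slit2, Sema4a and Robo1 were among those lost in some alternative. Only Sema4f, Efnb2 and Slit3 were called at none of the 4 stages.

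The stretches before the starts of Efna1, Ephb2, Epha2 and Robo1 are printed because, among members of at least 5 TPM in the higher group, these had the largest differences in favour of XX (the first pair) and of XY (the second pair). Each is the stretch of 250 bases before a start listed by RefSeq on GRCm38.p6, read in the direction of the gene, with capitals marking CpG dinucleotides. They lie at chr3:89280952-89281201 (minus strand, 1 of 2 listed starts), chr4:136836013-136836262 (minus strand), chr4:141300971-141301220 (plus strand) and chr16:72662899-72663148 (plus strand). The listed starts of Ephb2 and Robo1 lie 314 and 635631 bases inside the outer end of the annotated gene, so that these windows sit before an internal start, and which starts these cells used was not tested.
Efna1: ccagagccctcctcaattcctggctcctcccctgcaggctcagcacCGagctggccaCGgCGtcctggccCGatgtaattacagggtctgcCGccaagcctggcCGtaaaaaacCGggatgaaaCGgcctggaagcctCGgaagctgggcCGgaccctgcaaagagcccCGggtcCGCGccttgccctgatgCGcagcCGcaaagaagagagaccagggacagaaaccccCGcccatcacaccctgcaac
Ephb2: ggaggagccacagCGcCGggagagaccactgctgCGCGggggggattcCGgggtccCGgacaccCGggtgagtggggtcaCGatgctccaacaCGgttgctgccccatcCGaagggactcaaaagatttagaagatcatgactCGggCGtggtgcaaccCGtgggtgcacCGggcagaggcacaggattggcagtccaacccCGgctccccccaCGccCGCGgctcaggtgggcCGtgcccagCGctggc
Epha2: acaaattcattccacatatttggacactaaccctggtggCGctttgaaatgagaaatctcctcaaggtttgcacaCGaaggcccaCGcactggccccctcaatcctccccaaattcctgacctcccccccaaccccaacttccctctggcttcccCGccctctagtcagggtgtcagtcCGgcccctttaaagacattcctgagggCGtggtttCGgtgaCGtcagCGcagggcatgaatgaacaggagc
Robo1: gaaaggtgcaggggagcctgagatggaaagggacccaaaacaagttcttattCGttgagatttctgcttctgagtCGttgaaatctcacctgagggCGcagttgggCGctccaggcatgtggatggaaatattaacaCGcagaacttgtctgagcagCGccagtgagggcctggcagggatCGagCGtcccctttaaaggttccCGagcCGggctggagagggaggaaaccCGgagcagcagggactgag
The Ephb2 stretch holds 20 CpG dinucleotides, that of Efna1 16, that of Robo1 11 and that of Epha2 9. Over all members, 51 of 60 had at least 1 window in the RefSeq table, 66 windows in all, with a mean of 15.89 CpG dinucleotides. The mean was 15.3 over the 15755 windows of tested genes and 9.86 over all 32851 windows. Motif letters were searched on both strands. AACAAT, a core bound by SOX factors, was in 3.03% of member windows and 9.42% of all windows, and AAGGTCA, bound by NR5A1, in 4.55% and 4.08%. For the GATA factor family the letters were AGATAA, found in 4.55% and 9.99%. For TCF/LEF factors they were CTTTGA, in 4.55% and 13.8%, and for RUNX factors TGTGGT, in 10.6% and 14.0%. These member shares rest on 2 (SOX) to 7 (RUNX) of 66 windows. Motif shares were not counted over the windows of tested genes, whose mean CpG number is nearer to that of the members. The gaps to all windows are therefore not a comparison at like CpG content. Among the 4 printed stretches the search found 1 match, CTTTGA in Epha2 on the plus strand, 209 bases before the start.

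Efna1 was the most abundant ephrin of XX cells from E12.5 on. It encodes ephrin-A1, a lipid-anchored ligand of EphA receptors including EphA2. The XX values were 42.2, 129 and 25.3 TPM (E11.5), 165, 157 and 173 (E12.5), 152, 138 and 128 (E13.5), and 124, 129 and 118 (E15.5). The XY values were 9.95, 10.5 and 10.8 TPM (E11.5), 4.93, 6.41 and 7.56 (E12.5), 3.54, 2.84 and 3.59 (E13.5), and 4.43, 3.48 and 3.92 (E15.5). The groups did not overlap at any stage, and XX replicate 2 at E11.5 was already near the later level while replicates 1 and 3 were well below it. The difference was 2.79 (SE 0.38, adjusted p 7.54e-06) at E11.5, 4.51 (SE 0.42, adjusted p 1.15e-08) at E12.5, 5.45 (SE 0.44, adjusted p 1.41e-09) at E13.5 and 5.02 (SE 0.44, adjusted p 3.27e-09) at E15.5. The rise from E11.5 to E12.5 in XX cells, 1.19 (SE 0.35, adjusted p 0.0137), was lost without XX E11.5 replicate 1 or XX E12.5 replicate 3 (up to adjusted p 0.0708) and with the 6 compared libraries alone (adjusted p 1.45e-09 to 0.214 over the alternatives).

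Efna5, another EphA ligand, fell in both cell types after E11.5 and then parted. It stood at 33.6, 13.6 and 49.1 TPM (E11.5), 6.26, 4.68 and 4.88 (E12.5), 7.53, 7.76 and 9.98 (E13.5), and 10.98, 12.1 and 14.5 (E15.5) in XX cells. XY libraries held 22.0, 25.6 and 38.1 TPM (E11.5), 1.39, 1.45 and 1.15 (E12.5), 1.38, 1.35 and 1.39 (E13.5), and 1.41, 1.38 and 1.28 (E15.5). The groups overlapped at E11.5 and not afterwards. The fall from E11.5 to E12.5 was -2.67 (SE 0.29, adjusted p 3.49e-06) in XX and -4.21 (SE 0.32, adjusted p 9.84e-10) in XY cells, and the XX excess reached 3.27 (SE 0.32, adjusted p 1.19e-08) at E15.5. The summed level of the 10 interstitial markers went from 189 to 1018 TPM at E11.5 to 144 to 240.3 TPM at E12.5 in XX libraries, and from 423 to 701 TPM to 39.9 to 47.4 TPM in XY libraries. Their part in the fall was not tested.

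Efna2 was the main ephrin-A of XY cells from E12.5 on. It rose there from 19.8 ± 4.56 TPM at E11.5 to 30.5 ± 2.82 a day later and 51.9 ± 5.31 TPM by E13.5, and stood at 60.4 ± 0.772 TPM at E15.5, while the 4 XX group means ran from 29.1 to 31.9 TPM. Efna2 was called higher in XX at E11.5 and higher in XY at E13.5 and E15.5. Efna4 ran between 5.99 and 16.0 TPM in group means. Among the transmembrane ephrins, Efnb1 fell from E12.5 to E13.5 and again to E15.5 in XX cells, from 135 ± 11.45 through 59.4 ± 9.13 to 31.6 ± 8.46 TPM, and in XY cells it fell from 139 ± 46.4 TPM at E11.5 to 68.0 ± 3.0 TPM at E12.5. Efnb2 and Efnb3 stayed below 10 TPM in every library. Summed over the 7 ephrins, XX cells held 354 ± 9.38 TPM at E12.5 and 212 ± 15.2 TPM at E15.5, and XY cells 117 ± 0.544 and 113 ± 4.53 TPM.

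Among the Eph receptors, Ephb2 was the 1 called higher in XX at all 4 stages. It stood at 2.66, 3.55 and 3.81 TPM (E11.5), 5.75, 4.69 and 4.18 (E12.5), 5.45, 5.73 and 5.44 (E13.5), and 6.49, 5.84 and 5.56 (E15.5) in XX cells. For XY cells the levels were 1.17, 1.76 and 2.63 TPM (E11.5), 0.39, 0.42 and 0.47 (E12.5), 0.29, 0.42 and 0.23 (E13.5), and 0.08, 0.27 and 0.13 (E15.5). The highest XY library at E11.5 came close to the lowest XX library, and from E12.5 on the groups lay far apart. The difference grew from 1.08 (SE 0.21, adjusted p 3.35e-04) at E11.5 to 5.35 (SE 0.29, adjusted p 8.11e-13) at E15.5, and the sex-by-stage interaction gave adjusted p 4.74e-09. XY levels fell between E11.5 and E12.5. The XX rise between E12.5 and E13.5, 0.60 (SE 0.21, adjusted p 0.0330), was lost on all 3 TPM scales and without XX E12.5 replicates 2 and 3, XX E13.5 replicates 1, 2 and 3, XY E11.5 replicate 2, XY E12.5 replicates 2 and 3 or XY E13.5 replicate 3 (adjusted p 0.00297 to 0.638 over the alternatives).

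Epha2, a receptor for ephrin-A1, went the opposite way. It stood at 1.83, 2.51 and 2.22 TPM (E11.5), 9.84, 12.3 and 13.1 (E12.5), 14.0 to 16.2 (E13.5), and 28.1, 25.1 and 28.0 (E15.5) in XY cells. XX libraries held 3.56, 0.7 and 1.76 TPM (E11.5), 1.85, 1.40 and 2.16 (E12.5), 1.31, 1.25 and 0.98 (E13.5), and 0.46, 0.47 and 0.27 (E15.5). The groups overlapped at E11.5, where Epha2 was not called, and were separate from E12.5 on. It rose in XY cells by 2.62 (SE 0.27, adjusted p 5.24e-08) from E11.5 to E12.5, and the XX minus XY difference reached -2.94 (SE 0.28, adjusted p 9.69e-09) at E12.5, -3.65 (SE 0.29, adjusted p 6.90e-10) at E13.5 and -6.08 (SE 0.34, adjusted p 2.16e-12) at E15.5. Ligand and receptor of this pair were high in different cell types. At E15.5 Efna1 was at 124 ± 5.38 TPM in XX and 3.94 ± 0.475 in XY cells, and Epha2 at 0.40 ± 0.113 and 27.1 ± 1.73 TPM. Not every ephrin-A and EphA gene followed this split. At the same stage Efna2 was at 31.3 ± 1.94 TPM in XX and 60.4 ± 0.772 TPM in XY cells, and Epha7 was higher in XX libraries. The further XY rise of Epha2 from E13.5 to E15.5, 0.82 (SE 0.25, adjusted p 0.0202), was lost on log2(TPM + 0.1) and without XY E13.5 replicates 1, 2 and 3 or XY E15.5 replicates 1 and 3 (adjusted p 2.27e-06 to 0.0991 over the alternatives).

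Epha7 had the highest mean of the 11 Eph genes in XX cells at every stage and in XY cells at E11.5, and Ephb6 in XY cells from E12.5 on. Epha7 stood at 48.4, 41.6 and 61.1 TPM (E11.5), 71.4, 66.3 and 105 (E12.5), 39.4, 41.4 and 45.3 (E13.5), and 57.5, 62.6 and 61.9 (E15.5) in XX cells. In XY cells it stood at 80.5, 94.9 and 126 TPM (E11.5), 32.9, 33.0 and 25.9 (E12.5), 33.6, 29.7 and 32.1 (E13.5), and 15.3, 17.7 and 16.2 (E15.5). XY libraries were all higher at E11.5 and XX libraries all higher at the later stages. The difference turned from -0.82 (SE 0.15, adjusted p 1.75e-04) at E11.5 to 1.23 (SE 0.15, adjusted p 5.14e-07) at E12.5 and 2.12 (SE 0.16, adjusted p 1.62e-10) at E15.5, with 0.54 (SE 0.15, adjusted p 0.00376) at E13.5, and the interaction gave adjusted p 3.55e-09. On log2(TPM + 1) over all genes the E13.5 difference was not called (adjusted p 0.0704, range 5.58e-06 to 0.0704).

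Ephb6, which encodes an Eph receptor without kinase activity, was higher in XY cells at every stage. Its XX libraries ran from 5.57 to 30.6 TPM and its XY libraries from 39.2 to 87.7 TPM, with no overlap. The difference was -1.48 (SE 0.21, adjusted p 8.26e-06) at E11.5 and -3.46 (SE 0.23, adjusted p 3.55e-11) at E15.5 in counts. As a log2 ratio of mean TPM it was -1.501 and -2.55, so that the size of the widening depended on the scale. Ephb6 made up 47.1 ± 2.01% of the summed Eph receptor TPM in XY cells at E12.5 and 16.3 ± 4.20% in XX cells.

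Epha5 and Epha4 changed sides in opposite ways. Epha5 was low in both cell types until XY cells at E15.5, where it rose from 1.90, 1.79 and 1.62 TPM a stage earlier to 6.51, 7.52 and 8.46 TPM, a change of 2.09 (SE 0.22, adjusted p 1.01e-06). The 10 neural and Schwann markers summed to 107 to 119 TPM and 162 to 178 TPM in the same XY groups. In XX libraries at E15.5 they summed to 43.3 to 69.8 TPM. Of the 9 of these markers tested, 2 rose and 1 fell between those XY groups, with a median change of 0.0. At E15.5, 3 were called higher in XX and 3 in XY. The part of these markers in the Epha5 rise was not tested. XX cells held 2.52, 1.91 and 2.16 TPM at E15.5, and 1.88, 2.35 and 1.60 at E11.5 against 0.86, 0.96 and 1.21 in XY. The difference was 1.25 (SE 0.23, adjusted p 1.47e-04) at E11.5 and -1.42 (SE 0.22, adjusted p 6.35e-06) at E15.5. Epha4 fell in XY cells from 7.16, 6.13 and 9.22 TPM at E11.5 to 1.40, 1.81 and 1.36 at E12.5 and 0.58, 0.31 and 0.92 at E15.5. XX cells kept 2.62, 2.16 and 3.41 TPM at E12.5 and 4.35, 3.56 and 3.87 at E15.5. Its XX excess was 2.97 (SE 0.27, adjusted p 3.27e-09) at E15.5, with interaction adjusted p 5.45e-08. The E11.5 call of Epha4 in favour of XY, -0.59 (SE 0.23, adjusted p 0.0442), was lost with the 6 compared libraries alone, with DESeq2 size factors and without XX E11.5 replicate 2, XX E12.5 replicates 2 and 3, XX E13.5 replicates 2 and 3, XX E15.5 replicates 2 and 3, XY E11.5 replicates 1 and 3 or XY E12.5 replicate 1 (adjusted p 0.00984 to 0.185 over the alternatives). Its E12.5 call, 0.66 (SE 0.24, adjusted p 0.0244), was lost without XY E12.5 replicates 1 and 3 (adjusted p 0.00327 to 0.0585). Epha3 fell to 3 counts or fewer in every XY library at E12.5, while XX libraries held 3.45, 1.78 and 1.98 TPM. Of the remaining receptors, Ephb4 had group means of 11.53 to 40.0 TPM, and Epha1, Ephb1 and Ephb3 stayed under 10 TPM in every library.

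**Figure D2:**
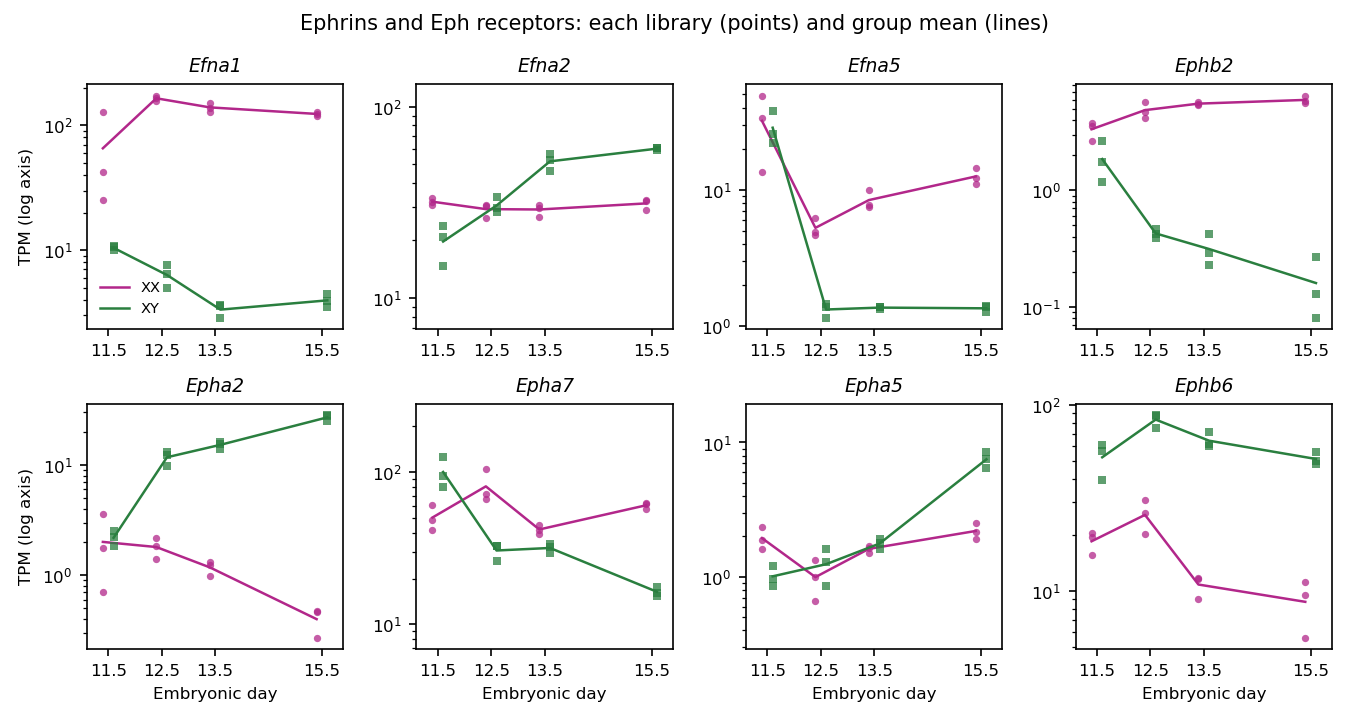
TPM (log axis) against embryonic day for 8 ephrins and Eph receptors; points are the 3 libraries of each group, lines join group means, circles are XX and squares XY. Efna1 and Ephb2 separate upward in XX and Epha2 and Ephb6 in XY, and the Epha7 lines cross after E11.5.

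Semaphorins leaned to XY cells after E12.5. Of 19 tested, 13 were called higher in XY and 2 in XX at E13.5, where 33.3% and 32.8% of all genes were. The E15.5 counts were 10 and 5, against 34.4% and 34.9%. Their summed level in XY cells was 186 ± 6.03 TPM at E11.5 and 379 ± 28.9 TPM at E13.5, and in XX cells 172 ± 22.3 and 154 ± 3.49 TPM. Class 4 semaphorins, which are transmembrane ligands, summed to 130.2 ± 9.31 TPM in XY and 28.7 ± 3.21 TPM in XX cells at E13.5, whereas the secreted class 3 semaphorins summed to 46.8 ± 1.79 and 57.9 ± 5.23 TPM.

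Sema4a, a transmembrane semaphorin, rose from E11.5 to E12.5 in both cell types and reached far higher levels in XY cells. It stood at 9.61, 11.7 and 5.80 TPM (E11.5), 65.2, 60.5 and 52.0 (E12.5), 78.1, 75.9 and 78.2 (E13.5), and 46.3, 46.9 and 48.1 (E15.5) in XY cells. For XX cells the levels were 3.66, 8.43 and 5.55 TPM (E11.5), 13.0, 12.6 and 10.2 (E12.5), 7.05, 4.69 and 5.67 (E13.5), and 3.77, 4.91 and 4.05 (E15.5). The groups overlapped at E11.5 and lay apart from E12.5 on. In XX cells the rise from E11.5 to E12.5, from a mean of 5.88 to 11.9 TPM, was called in edgeR (adjusted p 4.11e-04). The XY rise in that step was 2.93 (SE 0.21, adjusted p 2.76e-10), and the XX minus XY difference was -3.66 (SE 0.22, adjusted p 6.41e-12) at E13.5. Its E11.5 call, -0.64 (SE 0.21, adjusted p 0.0186), was lost on log2(TPM + 1) over all genes, with the 6 compared libraries alone and without XX E11.5 replicates 1 and 3 or XY E11.5 replicates 1 and 2 (adjusted p 6.86e-04 to 0.214 over the alternatives).

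Sema7a, a lipid-anchored semaphorin that binds plexin C1 and integrins, followed a like course. It stood at 6.47, 5.63 and 3.12 TPM (E11.5), 19.2, 21.2 and 22.0 (E12.5), 49.1, 40.6 and 47.3 (E13.5), and 53.6, 45.9 and 40.1 (E15.5) in XY cells. In XX cells it stood at 3.15, 4.05 and 2.73 TPM (E11.5), 5.20, 9.92 and 8.53 (E12.5), 2.86, 2.12 and 2.11 (E13.5), and 2.74, 2.84 and 1.91 (E15.5). The groups overlapped only at E11.5. XY levels rose from E11.5 to E12.5 and again, by 1.11 (SE 0.22, adjusted p 0.00147), to E13.5, and the difference was -4.24 (SE 0.26, adjusted p 1.12e-11) at E13.5 and -4.15 (SE 0.26, adjusted p 1.26e-11) at E15.5.

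Sema4d, known as a ligand of plexin B1, had the smallest interaction p of all members, adjusted p 3.68e-11. It stood at 3.61, 2.38 and 3.58 TPM (E11.5), 3.58, 2.47 and 2.47 (E12.5), 2.22, 1.60 and 1.04 (E13.5), and 1.69, 1.39 and 1.44 (E15.5) in XX cells. The XY values were 1.43, 1.57 and 1.05 TPM (E11.5), 6.76, 6.31 and 5.20 (E12.5), 8.47, 7.46 and 9.46 (E13.5), and 9.06, 8.49 and 7.79 (E15.5). XX libraries were all higher at E11.5 and XY libraries all higher afterwards, with differences of 1.35 (SE 0.17, adjusted p 1.49e-06) at E11.5, -1.38 (SE 0.16, adjusted p 2.25e-07) at E12.5 and -2.75 (SE 0.17, adjusted p 1.18e-11) at E15.5. Sema4d is also known in immune cells. The 12 immune markers all had a mean of 1 TPM or more in XX cells at E11.5 and a mean under 1 TPM in XY cells at every stage. Their part in the E11.5 difference was not tested.

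Sema5a was higher in XY cells throughout. It stood at 19.5, 20 and 15.3 TPM (E11.5), 33.7, 47.7 and 37.5 (E12.5), 27.3, 23.3 and 25.8 (E13.5), and 18.0, 17.0 and 19.6 (E15.5) in XY cells, and XX libraries ran from 1.53 to 7.7 TPM over all stages without overlap. The difference was -1.64 (SE 0.16, adjusted p 8.33e-08) at E11.5 and -3.09 (SE 0.17, adjusted p 1.69e-12) at E12.5. Sema5b, the most abundant semaphorin at E13.5 and E15.5 in XY cells, reached 98.8 ± 2.71 TPM at E15.5 against 44.9 ± 4.23 TPM in XX cells.

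Sema3a, the secreted repellent read by neuropilin 1 and plexin A receptors, was the main semaphorin to go the other way. It stood at 13.3, 29.3 and 15.6 TPM (E11.5), 48.0, 37.1 and 33.1 (E12.5), 33.9, 41.7 and 42.3 (E13.5), and 37.8, 41.2 and 48.3 (E15.5) in XX cells. XY libraries held 14.5, 13.3 and 16.5 TPM (E11.5), 10.5, 8.22 and 6.99 (E12.5), 6.14, 5.03 and 4.66 (E13.5), and 2.62, 3.04 and 1.66 (E15.5). The groups overlapped at E11.5 and then moved apart, with differences of 2.13 (SE 0.22, adjusted p 4.04e-08) at E12.5, 3.21 (SE 0.23, adjusted p 1.29e-10) at E13.5 and 4.40 (SE 0.25, adjusted p 2.72e-12) at E15.5. XY levels fell again from E13.5 to E15.5, with a change of -1.08 (SE 0.24, adjusted p 0.00218).

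Sema6c, another transmembrane semaphorin, differed most at E13.5. Sema6c in XY cells stood at 6.77, 8.48 and 6.79 TPM at E12.5 and 14.9, 21.2 and 39.5 at E13.5, where XX cells held 0.89, 0.91 and 1.14 TPM, a difference of -4.62 (SE 0.48, adjusted p 4.50e-08). The 3 XY libraries at E13.5 spread widely but all lay above every XX library of that stage. Sema4c fell in XX cells from 13.6, 17.49 and 11.9 TPM at E12.5 to 4.34, 2.82 and 2.72 at E13.5, a change of -1.86 (SE 0.26, adjusted p 2.75e-05), and XY cells held 13.6, 15.1 and 21.9 TPM. Sema4g fell in the same step, a change of -1.55 (SE 0.20, adjusted p 1.11e-05), from 10.95, 14.1 and 11.2 to 3.73, 3.86 and 3.33 TPM. Sema4b changed sides more than once. It was higher in XX at E11.5, 1.52 (SE 0.19, adjusted p 1.89e-06), and again at E15.5, 0.78 (SE 0.19, adjusted p 8.34e-04), after an XX rise from 13.7, 12.6 and 15.0 to 25.1, 26.1 and 36.2 TPM. At E13.5 it was higher in XY, -0.50 (SE 0.19, adjusted p 0.0221), a call lost with at least 10 counts in every library and without XX E13.5 replicates 1 and 2, XY E13.5 replicates 2 and 3 or XY E15.5 replicate 3 (adjusted p 0.00154 to 0.139 over the alternatives). Of the remaining semaphorins, Sema3d, Sema3e, Sema3g and Sema4f stayed under 4 TPM in every library, and Sema3b, Sema3c, Sema3f, Sema6a and Sema6d had group means between 1.22 and 33.8 TPM.

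Plexins, the semaphorin receptors, had more calls in favour of XX early and more in favour of XY late. At E11.5, 6 of 8 were called higher in XX and 0 in XY, against 21.4% and 20.6% of all genes. Of the 6, Plxnc1 and Plxnd1 were not called on any of the 3 TPM scales or with the 6 compared libraries alone. The call of Plxna3 was lost without XX E11.5 replicate 1. The E15.5 counts were 3 and 5, against 34.9% and 34.4%, and 1 of the 5, Plxna3, was not called on TPM scales. The 8 together summed to 173 ± 16.7 TPM in XX and 127 ± 14.0 TPM in XY cells at E11.5, and to 109 ± 9.28 and 213 ± 8.77 TPM at E15.5. All 8 were called in the interaction, where 70.1% of all genes tested were.

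Plxnb2, a receptor of class 4 semaphorins, was the most abundant plexin in every group. It stood at 88.5, 105 and 103 TPM (E11.5), 168, 176 and 132 (E12.5), 99.9, 89.2 and 83.0 (E13.5), and 84.9, 77.3 and 69.5 (E15.5) in XX cells. For XY cells the levels were 68.9, 84.8 and 71.9 TPM (E11.5), 148, 132 and 115 (E12.5), 152, 152 and 168 (E13.5), and 141, 127 and 141 (E15.5). XX libraries were all higher at E11.5, the groups overlapped at E12.5, and XY libraries were all higher afterwards. The difference was 0.55 (SE 0.15, adjusted p 0.00470) at E11.5, -1.43 (SE 0.15, adjusted p 3.57e-08) at E13.5 and -1.97 (SE 0.15, adjusted p 2.83e-10) at E15.5, with interaction adjusted p 4.68e-09. The deposited TPM give smaller late differences, with log2 ratios of the group means of -0.80 and -0.82, and the cause of the gap to the counts was not tested.

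Plxnc1, the receptor of semaphorin 7A, rose in XY cells together with its ligand. It stood at 5.59, 4.82 and 4.64 TPM (E11.5), 17.8, 13.7 and 14.5 (E12.5), 24.4, 23.6 and 24.4 (E13.5), and 22.9, 27.6 and 25.9 (E15.5) in XY cells. The XX values were 7.05, 6.52 and 5.68 TPM (E11.5), 13.4, 10.5 and 10.4 (E12.5), 7.0, 8.92 and 7.99 (E13.5), and 4.97, 6.50 and 7.0 (E15.5). From E11.5 to E12.5 the XX means rose as well, from 6.42 to 11.4 TPM for Plxnc1 and from 3.31 to 7.88 TPM for Sema7a. At E13.5 these XX means were lower again, at 7.97 and 2.36 TPM. The Plxnc1 groups did not overlap at any stage but changed order between E11.5 and E12.5. The difference was -0.64 (SE 0.14, adjusted p 4.20e-04) at E12.5 and -1.98 (SE 0.14, adjusted p 9.82e-11) at E15.5. The E11.5 call in favour of XX, 0.41 (SE 0.14, adjusted p 0.0220), was lost on all 3 TPM scales, with the 6 compared libraries alone and without XX E11.5 replicates 1 and 2 or XY E11.5 replicates 2 and 3 (adjusted p 0.00720 to 0.158 over the alternatives).

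The plexin A genes parted by member. Plxna2 stood at 15.53, 7.60 and 15.8 TPM (E11.5), 15.8, 15.46 and 11.9 (E12.5), 8.19, 7.77 and 7.41 (E13.5), and 5.82, 7.70 and 6.57 (E15.5) in XX cells. In XY cells it stood at 6.84, 6.91 and 7.35 TPM (E11.5), 1.03, 1.08 and 0.93 (E12.5), 0.64, 0.55 and 0.38 (E13.5), and 0.26, 0.34 and 0.12 (E15.5). It was higher in every XX library than in any XY library of its stage, by 0.94 (SE 0.21, adjusted p 0.00106) at E11.5, 3.69 (SE 0.24, adjusted p 2.29e-11) at E12.5 and 5.01 (SE 0.28, adjusted p 1.56e-12) at E15.5. Plxna4 ran from 4.01 to 6.5 TPM in XX libraries and fell in XY libraries from 2.04, 1.42 and 1.69 TPM at E11.5 to 0.3, 0.31 and 0.34 at E15.5. Its difference grew from 1.501 (SE 0.15, adjusted p 5.51e-08) to 4.21 (SE 0.17, adjusted p 1.68e-14). Plxna1 moved the other way, from 5.22, 5.43 and 3.8 TPM at E11.5 to 23.1, 20.03 and 22.7 at E15.5 in XY cells, with 3.36, 4.23 and 2.28 in XX cells, and a difference of -2.48 (SE 0.17, adjusted p 4.74e-11) at E15.5.

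Plxnd1, a receptor of semaphorin 3E best known from vessels, fell over time in both cell types. It stood at 35.8, 15.49 and 32.5 TPM (E11.5), 16.9, 15.8 and 16.7 (E12.5), 17.9, 12.47 and 10.3 (E13.5), and 4.17, 2.88 and 1.91 (E15.5) in XX cells. The XY values were 16.3, 24.2 and 15.3 TPM (E11.5), 6.03, 9.74 and 6.87 (E12.5), 2.45, 3.23 and 3.65 (E13.5), and 0.76, 0.4 and 1.15 (E15.5). The groups overlapped at E11.5 and XX libraries were higher from E12.5 on, by 1.97 (SE 0.23, adjusted p 1.41e-07) at E13.5. The fall from E13.5 to E15.5 was -2.10 (SE 0.23, adjusted p 2.40e-06) in XX cells. At E11.5 the call, 0.90 (SE 0.21, adjusted p 0.00141), was lost on all 3 TPM scales and with the 6 compared libraries alone (adjusted p 7.51e-06 to 0.237 over the alternatives). The 12 endothelial markers summed to 39.2 to 60.9 TPM in XX and 33.0 to 48.1 TPM in XY libraries, Egfl7 giving most of it, and Flt1, Tie1 and Cldn5 were under 1 TPM in every group mean. These markers did not share 1 direction. Of the 11 tested, 4 were called higher in XX and 0 in XY at E11.5, then 1 and 2 at E12.5. From E13.5 on, each stage had 3 called higher in XX and 2 in XY. Kdr, the main receptor of VEGF-A on endothelial cells, was higher in XX cells from E12.5 on. Its XX and XY levels were 8.22 ± 2.75 TPM against 0.133 ± 0.0551 (E12.5), 7.56 ± 0.909 against 0.503 ± 0.0987 (E13.5) and 7.70 ± 0.913 against 1.56 ± 0.217 (E15.5). Cdh5 had a mean of at least 1 TPM in XY but not in XX cells from E13.5 on. Pecam1 had group means of 0.907 to 8.41 TPM. The part of these markers in the Plxnd1 levels was not tested. Nrp1, the neuropilin with the higher levels, went from 48.6 ± 27.1 TPM at E11.5 to 6.31 ± 1.42 at E15.5 in XX and from 50.7 ± 11.12 to 3.84 ± 1.10 TPM between E11.5 and E12.5 in XY cells. Nrp2 had group means of 0.49 to 5.47 TPM.

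**Figure D3:**
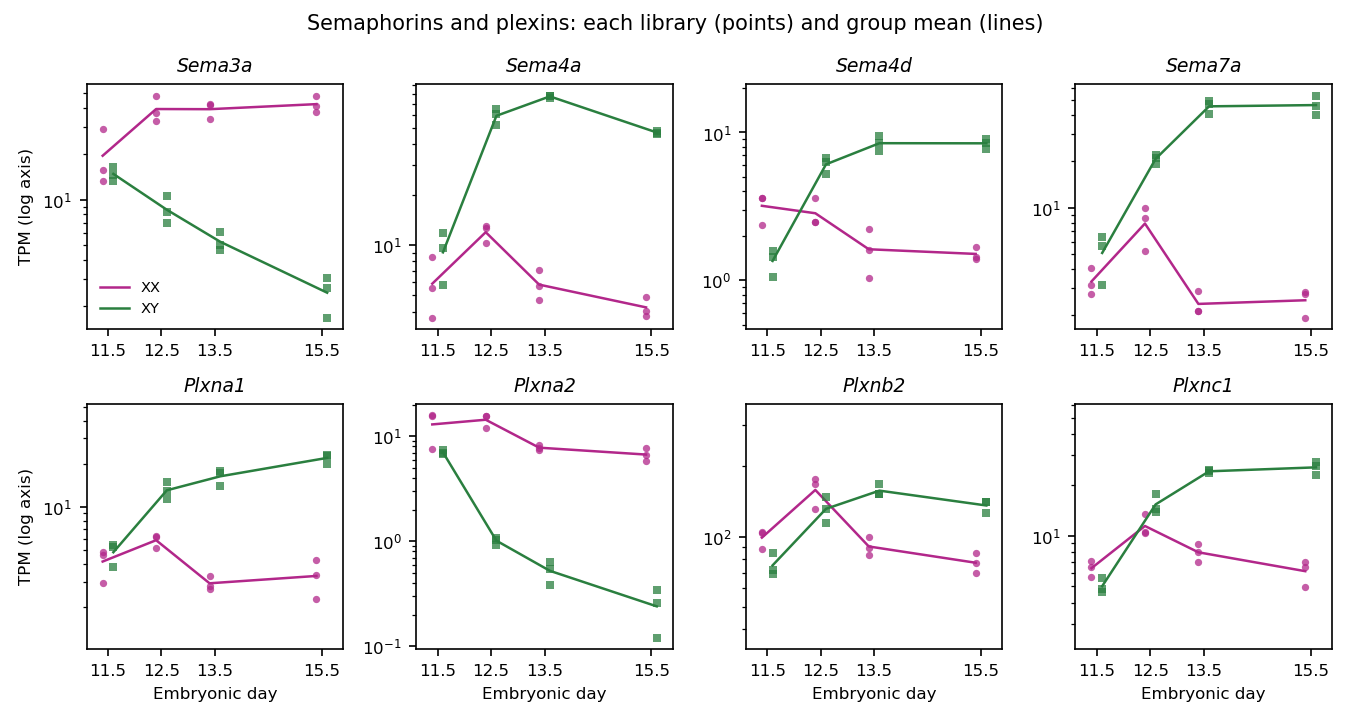
TPM (log axis) against embryonic day for 4 semaphorins and 4 plexins; points are the 3 libraries of each group, lines join group means, circles are XX and squares XY. Sema3a and Plxna2 lie above in XX from E12.5 on, with the XY lines dropping away, while Sema4a, Sema7a, Plxna1 and Plxnc1 climb in XY after E11.5.

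In the Slit and Robo families, Slit2 was higher in XX and Robo1 higher in XY cells. Robo1, a Slit receptor, stood at 44.3, 42.6 and 35.5 TPM (E11.5), 103, 103 and 90.1 (E12.5), 44.8, 41.0 and 45.8 (E13.5), and 17.1, 17.7 and 17.1 (E15.5) in XY cells. XX libraries held 32.6, 4.42 and 25.8 TPM (E11.5), 4.81, 3.95 and 2.77 (E12.5), 1.89, 1.97 and 2.22 (E13.5), and 1.06, 1.93 and 1.36 (E15.5). No XX library reached the XY libraries of its stage, although XX replicates 1 and 3 at E11.5 were far above replicate 2. The difference was -4.88 (SE 0.43, adjusted p 5.29e-09) at E12.5, -4.47 (SE 0.43, adjusted p 1.93e-08) at E13.5 and -3.71 (SE 0.43, adjusted p 2.23e-07) at E15.5. Robo1 peaked in XY cells at E12.5 and fell again to E15.5, with a change of -1.32 (SE 0.37, adjusted p 0.0131) from E13.5. The step from E12.5 to E13.5, -1.22 (SE 0.36, adjusted p 0.0259), was lost on all 3 TPM scales, with no filter on low counts and without XY E12.5 replicates 1, 2 and 3 or XY E13.5 replicates 1, 2 and 3 (adjusted p 4.29e-07 to 0.0982 over the alternatives). At E11.5 the difference, -0.93 (SE 0.36, adjusted p 0.0460), was lost in DESeq2, with DESeq2 size factors in edgeR, with no filter on low counts, with the 6 compared libraries alone and when any of 19 of the 24 libraries was left out, XX E12.5 replicate 2, XX E13.5 replicates 1, 2 and 3, XX E15.5 replicates 1, 2 and 3, XY E11.5 replicates 1, 2 and 3, XY E12.5 replicates 1, 2 and 3, XY E13.5 replicates 1, 2 and 3 or XY E15.5 replicates 1, 2 and 3 (adjusted p 0.0122 to 0.294 over the alternatives).

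Slit2, a secreted ligand of Robo1 and Robo2, stood at 33.5, 21.0 and 38.9 TPM (E11.5), 26.9, 30.4 and 26.1 (E12.5), 17.3, 10.5 and 12.7 (E13.5), and 12.3, 18.6 and 15.4 (E15.5) in XX cells. XY libraries held 11.99, 16.5 and 25.1 TPM (E11.5), 5.04, 4.45 and 3.35 (E12.5), 2.84, 2.83 and 2.97 (E13.5), and 3.13, 3.33 and 4.52 (E15.5). The groups overlapped at E11.5 and were separate from E12.5 on, with a difference of 2.77 (SE 0.24, adjusted p 3.97e-09) at E12.5 and 2.47 (SE 0.25, adjusted p 1.86e-08) at E15.5. The E11.5 call, 0.85 (SE 0.23, adjusted p 0.00474), was lost when only the 6 E11.5 libraries were fitted (adjusted p 0.0999, range 2.55e-04 to 0.0999). Slit3 was seen mainly at E11.5, at 5.95, 2.65 and 13.51 TPM in XX and 3.64, 6.67 and 12.9 TPM in XY cells, and at 0.39, 1.33 and 0.83 and 0.84, 0.68 and 0.74 TPM at E12.5. Its fall in XX cells was -3.31 (SE 0.65, adjusted p 6.90e-04). In both sexes replicate 3 was the highest E11.5 library, and the groups overlapped at every stage. Robo2 fell in XY cells from 35.8 ± 7.56 TPM at E11.5 to 5.45 ± 0.130 TPM at E12.5. Robo3 rose to 1.91 ± 0.221 TPM in XY cells at E12.5 and stayed at or under 0.17 TPM in every XX library, and Slit1 stayed under 0.6 TPM in every library.

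The netrins themselves were low. Ntn1 and Ntn4 together summed to at most 1.73 TPM in any library. Neo1, which encodes neogenin, a receptor of netrins and of repulsive guidance molecules, had group means of 16.8 to 36.0 TPM. Unc5c, a repulsive netrin receptor, was at 6.79, 8.59 and 13.4 TPM (E11.5), 0.21, 0.24 and 0.14 (E12.5), 0.16, 0.06 and 0.03 (E13.5), and 0.17, 0.39 and 0.49 (E15.5) in XY cells. In XX cells it was at 1.57, 0.79 and 6.50 TPM (E11.5), 0.91, 1.24 and 0.79 (E12.5), 0.38, 0.38 and 0.94 (E13.5), and 1.17, 0.64 and 0.8 (E15.5). XY libraries were all higher at E11.5 and XX libraries all higher later, and the XY fall to E12.5 was -5.93 (SE 0.58, adjusted p 3.91e-08). The E11.5 difference, -1.47 (SE 0.44, adjusted p 0.0108), was lost without XY E11.5 replicate 3 (adjusted p 0.0557) and with the 6 compared libraries alone (adjusted p 4.62e-06 to 0.151 over the alternatives). The XX excess of 2.18 (SE 0.58, adjusted p 0.00265) at E12.5, at levels near 1 TPM, was not called on log2(TPM + 1) (adjusted p 9.62e-06 to 0.109 over the alternatives). The same held at E13.5 and E15.5, where the adjusted p ran to 0.263 and 0.303 on TPM scales, from a lowest of 8.27e-07 and 2.10e-05. Unc5b stayed under 4 TPM in every library, and Dcc was at 0.36 TPM or less and listed at 0 in all libraries of XX at E12.5 and of XY at E12.5 and E13.5.

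**Figure D4:**
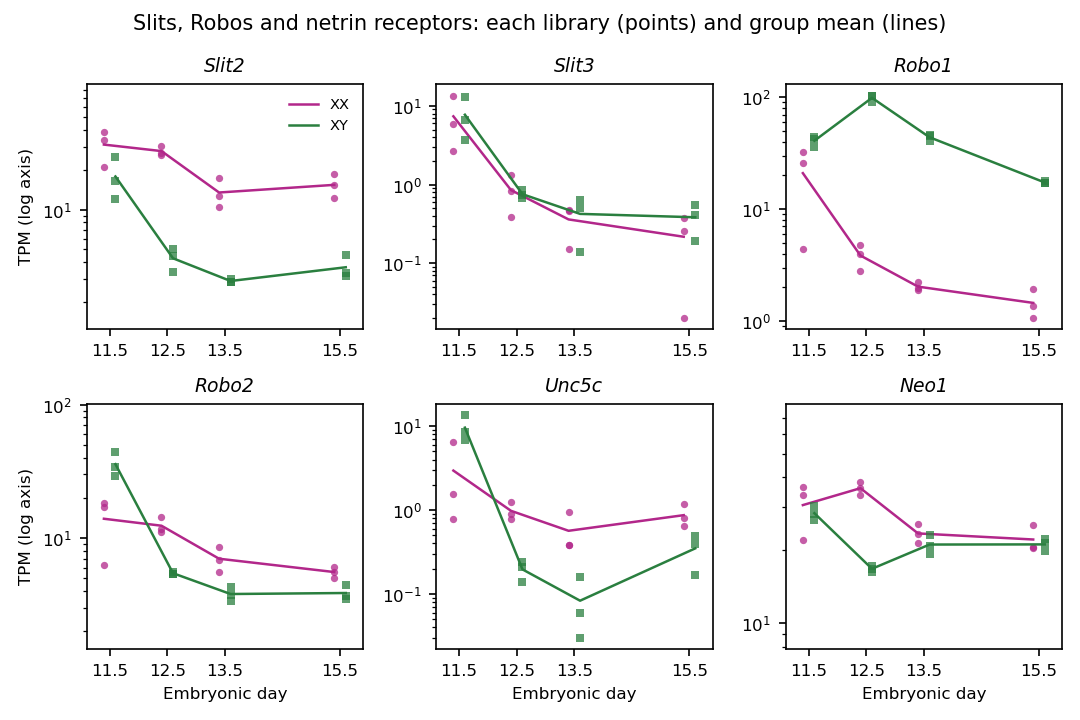
TPM (log axis) against embryonic day for Slit2, Slit3, Robo1, Robo2, Unc5c and Neo1; points are the 3 libraries of each group, lines join group means, circles are XX and squares XY. Robo1 lies above in XY and Slit2 above in XX at each stage, and Slit3 and Unc5c drop after E11.5.

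Some families differed between the cell types in which member gave most of their summed level. Within the 4 ephrin-A genes, Efna1 gave 77.5 ± 2.35% of the summed TPM in XX cells at E12.5 and 69.98 ± 0.375% at E15.5. In XY cells at E15.5 it gave 5.49 ± 0.568% and Efna2 84.3 ± 0.665%. At E11.5 the Efna1 share in XX cells, 42.5 ± 24.1% (SD, n = 3), ran from 21.9 to 69.1% over the 3 libraries. Within the 4 plexin-A genes, Plxna1 gave 86.0 ± 2.64% in XY and 17.0 ± 3.30% in XX cells at E15.5, and Plxna2 0.951 ± 0.476% and 35.1 ± 3.47%. Of Robo1 and Robo2 together, Robo1 gave 94.7 ± 0.515% in XY and 23.5 ± 3.08% in XX cells at E12.5. Summed ephrin-A TPM was 177 ± 6.96 in XX and 71.7 ± 1.30 in XY cells at E15.5, and summed plexin-A TPM 19.1 ± 2.26 and 25.5 ± 1.58. These shares were not tested.

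**Figure D5:**
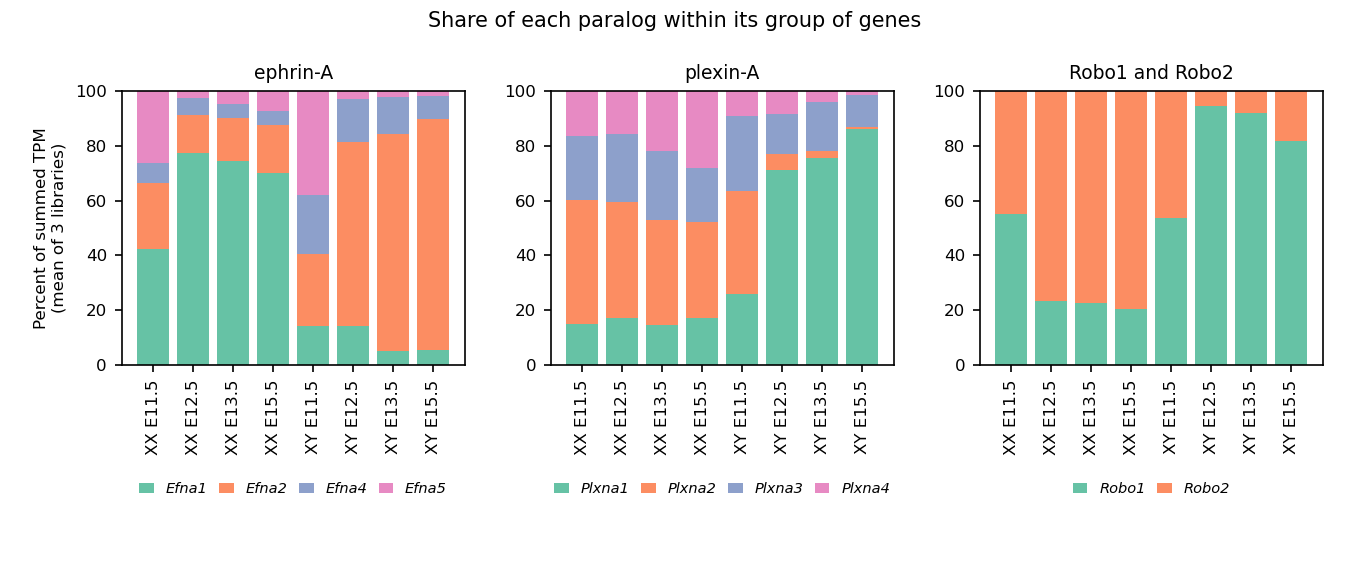
Stacked bars of the percent of summed TPM given by each gene, as means of the 3 libraries, for the 4 ephrin-A genes, the 4 plexin-A genes and Robo1 with Robo2 in each of the 8 groups. Efna1 fills most of the XX ephrin-A bars from E12.5 and Efna2 most of the XY bars from E12.5, and Plxna1 fills 86.0% of the XY plexin-A bar at E15.5.

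The sex difference itself changed over the stages in 50 of 59 members (84.7%), by the sex-by-stage interaction in edgeR, against 70.1% of all genes tested. The count was 26 of 28 receptors and 24 of 31 ligands. Some members changed sides: 11 of 59 (18.6%) were called with opposite signs at E11.5 and E15.5, against 7.15% of all genes. Sema4d, Plxna3, Plxnb2, Plxnc1, Efna2 and Epha5 went from XX to XY, and Sema6a, Efna4, Epha4, Epha7 and Unc5c from XY to XX. Of these, the E11.5 calls of Plxna3, Plxnc1, Epha4 and Unc5c could be lost by leaving out 1 library (for Plxna3, XX E11.5 replicate 1), as could the E15.5 call of Plxna3, without XX E12.5 replicates 2 and 3, XX E13.5 replicate 2, XX E15.5 replicate 3, XY E11.5 replicate 3, XY E12.5 replicate 1, XY E13.5 replicates 1 and 2 or XY E15.5 replicates 1 and 2. The other 7 kept both calls whichever library was left out. On log2(TPM + 1) the Plxna3 difference at E15.5 had the other sign and was not called, 0.26 (adjusted p 0.251) against -0.399 (adjusted p 0.0344) in counts. The count of 11 was 8 on each of the 3 TPM scales and 6 with only the compared libraries. The share of all genes with opposite signs was not computed in those fits, so these counts have no background to be read against.

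Over time, 50 of 59 members changed in XX cells and 57 in XY cells, where 74.0% and 70.3% of all genes did. The largest turnover was the step from E11.5 to E12.5 in XY cells, with 23 members higher and 26 lower at the later stage, against 27.1% and 24.8% of all genes. Those that fell included Unc5c, Efna5, Nrp1, Plxna2, Robo2 and Ephb2, and those that rose included Sema4a, Epha2, Sema4d, Sema7a, Plxnc1 and Plxna1. In the same step in XX cells, 13 rose and 14 fell, against 16.7% and 17.3% of all genes. On log2(TPM + 1) that split was 17 and 9, and with the 6 compared libraries alone 8 members were called. Between the same XX groups the immune marker sum went from 234 to 661 TPM to 97.8 to 104 TPM and the erythroid sum from 10950 to 87550 TPM to 2388 to 5469 TPM, and their part in the changes was not tested.

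Between E12.5 and E13.5, 26 members fell and 3 rose in XX cells, against 17.4% and 14.2% of all genes. Of these 26, 12 were semaphorins and 6 were plexins, among them Sema4c, Sema4g, Sema7a, Sema6c and Plxnb2, and the median change over members was -0.61. On log2(TPM + 1) over all genes, 27 fell and 0 rose; on TPM scales the median of all genes moved by -0.22 in this step, 0.20 in the E12.5 sex contrast and -0.20 in the XY step from E11.5 to E12.5. Without XX E13.5 replicate 1, the library with 2 stage labels, 25 fell and 2 rose. In XY cells 9 rose and 10 fell in that step, against 8.02% and 8.62% of all genes. This XY count of 19 became 11 without XY E12.5 replicate 2, 12 without XY E12.5 replicate 3 or XY E13.5 replicate 2, and 32 with the 6 compared libraries alone. Between E13.5 and E15.5, 4 members rose and 9 fell in XX cells, against 12.8% and 12.8%. In XY cells 24 changed, of which 19 fell, against 21.3% of all genes changed and 9.79% lower. Leaving aside the fit without the E11.5 libraries, which gave the highest count, the XX count of 13 ran from 7 to 21. The 7, with 3 higher and 4 lower, came on log2(TPM + 1) over all genes, and the 21 with the 6 compared libraries alone. Without XX E11.5 replicate 2 the XX count was 20. The XY falls included Plxnd1, Plxna4, Robo1, Plxna2 and Sema3a, and the rises Epha5 and Epha2.

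Genes linked to these receptors by textbook knowledge were counted from 2 further lists. Of 27 further guidance ligands, receptors and co-receptors outside the 60, 22 were tested. Of these, 7 were called higher in XX and 3 in XY (E11.5), then 13 and 4 (E12.5), 12 and 6 (E13.5) and finally 12 and 4 (E15.5), where the shares of all genes were 21.4% and 20.6%, 30.5% and 31.5%, 32.8% and 33.3%, and 34.9% and 34.4%. The median difference was 0.37, 1.45, 0.77 and 1.27 at the 4 stages in turn. With at least 10 counts in every library, 12 of the 27 were tested and the calls were 8 and 0 at E12.5, and 7 and 1 at E15.5. Boc, a hedgehog co-receptor and guidance receptor, was at 38.3 ± 3.82 TPM in XX and 2.53 ± 0.316 TPM in XY cells at E12.5, a difference of 3.71 (SE 0.19, adjusted p 7.30e-13). Alcam, an adhesion molecule, was at 45.0 ± 9.88 and 11.2 ± 0.142 TPM at E15.5, a difference of 2.30 (SE 0.16, adjusted p 7.75e-11). Gpc1, a heparan sulfate proteoglycan that binds Slit, was at 4.56 ± 1.34 and 54.0 ± 8.55 TPM, a difference of -3.52 (SE 0.31, adjusted p 3.84e-09). Of 51 intracellular effectors, 50 were tested. Of these, 15 were called higher in XX and 13 in XY (E11.5), then 21 and 19 (E12.5), 18 and 19 (E13.5) and finally 20 and 16 (E15.5), read against the same shares of all genes, with medians between -0.09 and 0.16. The interaction was called for 45 of the 50, against 70.1% of all genes. Srgap1, a GTPase-activating protein bound by Robo1, was in XY cells at 0.540 ± 0.218 TPM at E15.5 against 8.92 ± 0.603 TPM in XX cells, a difference of 4.30 (SE 0.17, adjusted p 1.07e-14). Ngef, an exchange factor bound by EphA receptors, peaked at 30.1 ± 3.11 TPM in XY cells at E12.5. Chn2, a Rac GTPase-activating protein, was at 22.9 ± 2.76 TPM in XX and 1.74 ± 0.370 TPM in XY cells at E15.5, a difference of 4.19 (SE 0.24, adjusted p 2.23e-12).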

How the data were processed

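Total RNA of sorted cells was made into poly(A)-selected, amplified cDNA libraries, per the labels' protocols. The authors deposited estimated counts per gene and TPM per gene, a length-scaled share of transcripts. The build is mm10 per the submitters' processing notes; aligner, counter, annotation and use of strand are not given in the sources used here, so overlapping, antisense and near-identical genes could share reads. Of the count values, 17.5% were not whole, and counts were rounded.

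Tests used edgeR 4.0.16 in R 4.3.3: filterByExpr, TMM scaling, quasi-likelihood fits with 1 mean per group over all 24 libraries (16 residual degrees of freedom), and Benjamini-Hochberg adjustment over 16190 genes, with calls at 0.05. The standard error is the size of the difference divided by the square root of F. Total counts of 11275277 to 37256871 per library set the precision of low genes. A gene at 3 counts or fewer in every library of a group is given as a level only. The method was tested on simulated data. No column was left unused for want of a sample (0 columns).

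The members, the lists and the rule for naming genes were chosen with earlier results of these data known. Members were picked as the 12 with the smallest interaction p and the 3 called with the largest difference in each direction of each sex contrast. The 2 in each direction of each stage step were added. Sex contrasts and steps needed a mean of at least 5 TPM in the higher group. Values per library, or their range, are given for the picked members at some or all stages. Not every picked stage step is given with its difference. For the other lists, up to 3 genes by interaction p are named. This gave 27 members, and the others are given by levels and counts.

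Alternatives were DESeq2 1.42.0 and its size factors, other count filters, limma 3.58.1 on log2(TPM + 1) and log2(TPM + 0.1), the replicate number as a block, only the compared libraries, and leaving out each library. Fits without the E11.5 libraries, and the interaction over E12.5 to E15.5 only, were chosen after seeing the data. Promoter stretches came from a RefSeq table on GRCm38.p6.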

Additional observations from a re-analysis of the deposited data

Results flagged for a closer look

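The XX minus XY difference changed over the 4 stages in 50 of 59 tested members, against 70.1% of all genes tested. The test was edgeR's quasi-likelihood test of the sex-by-stage interaction with Benjamini-Hochberg adjustment. Each of the 12 members with the smallest p was picked out because its sex difference was not the same at all stages. In 6 of them the difference in favour of XX grew with stage or replaced an earlier difference in favour of XY: Epha7 (adjusted p 3.55e-09), Ephb2 (4.74e-09), Plxna4 (5.10e-09), Sema3a (8.97e-09), Plxna2 (1.08e-08) and Epha4 (5.45e-08). In the other 6 the difference moved toward XY: Sema4d (3.68e-11), Plxnb2 (4.68e-09), Epha2 (6.19e-09), Sema7a (7.65e-09), Plxnc1 (9.62e-09) and Plxna1 (5.60e-08). With E11.5 left out, 47 of 58 tested members were called in the interaction, a fit chosen after seeing the data. The share of all genes called in that fit was not computed, so this count has no background to be read against.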

How the results depend on the processing

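Of 126 called single-gene values of members, 0 reversed in any alternative, 19 were lost in some alternative that kept all libraries and 13 in some fit that left out 1 library. The counts of called members stayed within 1.5 times the main count in every alternative except these and the 4 fits that left out 1 library named with the 2 late steps. With only the compared libraries, the E11.5 sex contrast gave 15 (32 as reported), the XX step from E11.5 to E12.5 gave 8 (27), the XX step from E13.5 to E15.5 gave 21 (13) and the XY step from E12.5 to E13.5 gave 32 (19). Without the E11.5 libraries, the last 2 gave 22 and 31. The XX step from E13.5 to E15.5 gave 8 on log2(TPM + 1) and 7 on that scale over all genes. The cause was not tested.

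Leaving out each library in turn gave 26 to 32 called members at E11.5, 39 to 44 at E12.5, 43 to 47 at E13.5, 37 to 45 at E15.5 and 50 to 52 in the interaction. For the steps it gave 24 to 34, 24 to 34 and 10 to 20 in XX, and 45 to 50, 11 to 24 and 18 to 26 in XY cells. The split of higher against lower calls in the XX step from E11.5 to E12.5 was 13 to 14 in counts, 17 to 9 on log2(TPM + 1), 16 to 8 on log2(TPM + 0.1) and 15 to 10 over all genes. With the replicate number as a block (replicate block), 32, 43, 44 and 44 members were called in the 4 sex contrasts and 50 in the interaction. Same-numbered libraries of 2 groups correlated between -0.11 and 0.30 in their deviations, with 0 of 28 pairs of groups over 0.1 throughout. The XX and XY groups at E11.5 came nearest to that limit, at 0.11, 0.087 and 0.298. Whether same-numbered libraries of that stage were prepared together was not tested. Calls lost on TPM scales included those of Unc5c after E11.5, at about 1 TPM or less, and of Plxnd1, Plxnc1 and Robo1 at higher levels. Plxna3 at E15.5, outside the 126, took the other sign there.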
